A study of Mus musculus with 118 samples.

Results

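Wide RING1B sites without SUZ12 or PCGF2 are broad stretches of PRC1-bound chromatin in mouse embryonic stem cells (ESCs). They overlap no peak of the final lists for SUZ12, a PRC2 subunit, and PCGF2. They were chosen by the peak lists themselves, as RING1B peaks of 3000 bp or more (end minus start) that share no base with a SUZ12 peak or a PCGF2 peak. There were 499 such sites among 18643 RING1B peaks (2.68%), and they made up 4.32% of the 11541 RING1B peaks that overlapped neither other list. Because width and the 2 overlaps chose the sites, these values are given as a description only and were not tested.

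RING1B is the catalytic core of Polycomb repressive complex 1 (PRC1), an E3 ligase that ubiquitylates histone H2A. Canonical PRC1 contains PCGF2 or PCGF4 together with a CBX protein that reads H3K27me3, the mark laid down by PRC2, of which SUZ12 is a core subunit. Variant PRC1 complexes contain RYBP or YAF2 in place of a CBX protein and can use any PCGF protein, including PCGF2. They can reach chromatin without H3K27me3, for example through the KDM2B subunit, whose zinc finger binds unmethylated CpG-rich DNA, or through DNA-binding partners of PCGF6.

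The study profiled 118 calibrated ChIP-seq samples in 42 groups, and 3 lists of peak positions from untreated cells were analysed here. The RING1B and SUZ12 lists hold peaks found in both of 2 E14 lines. PRC1CPM (clone 41) carries Ring1a I50A/D53K alleles, a Ring1b (WT->I53A/D56K) fl/fl cassette that still expresses wild-type RING1B before tamoxifen, and Rosa26::ERT2-Cre. PRC1CKO (clone B9) is Ring1a-/- and Ring1b fl/fl with Rosa26::ERT2-Cre, so both lines lack active RING1A and each is 1 clone. The PCGF2 list comes from untreated PRC1CPM cells alone. The labels give 3 samples each for RING1B, SUZ12 and PCGF2 in untreated PRC1CPM and 3 for SUZ12 in untreated PRC1CKO. Each list holds a single set of positions for its samples, with no height, depth or replicate. A site without a SUZ12 or PCGF2 peak is therefore one where the final list holds none, and cultures cannot be compared. Such a site may still have had a SUZ12 peak in a single line or a PCGF2 peak in some replicates.

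The sequences under the sites ranged from dense CpG islands to DNA with few CpGs. Of the 376 genes with a curated transcription start site (TSS) inside a site, 292 had a RefSeq promoter sequence (250 bases before to 50 after the TSS, GRCm38.p6). The first 3 lines below show CpG-dense promoters, those of Pim3 (chr15:88861944-88862243, plus strand), a serine/threonine kinase, Ptma (chr1:86526307-86526606, plus strand), which encodes prothymosin alpha, and Sox2 (chr3:34649745-34650044, plus strand), a core pluripotency factor. The next 2 are promoters with fewer CpGs, those of Rarg (chr15:102246451-102246750, minus strand), a retinoic acid receptor, and Pou5f1 (chr17:35505782-35506081, plus strand), which encodes OCT4. The last 2, on the plus strand, are the most CpG-dense 300 bases of the widest sites with no curated TSS inside. They are the site at Ccr7 (chr11:99144936-99145235), whose stretch lies wholly in a Ccr7 exon, and the site nearest to Nxph3 (chr11:95538892-95539191), whose stretch touches no exon. Capitals mark CpG dinucleotides. The Sox2 and Pou5f1 promoters were chosen after their values were seen, and the others come from the widest sites.
Pim3 promoter: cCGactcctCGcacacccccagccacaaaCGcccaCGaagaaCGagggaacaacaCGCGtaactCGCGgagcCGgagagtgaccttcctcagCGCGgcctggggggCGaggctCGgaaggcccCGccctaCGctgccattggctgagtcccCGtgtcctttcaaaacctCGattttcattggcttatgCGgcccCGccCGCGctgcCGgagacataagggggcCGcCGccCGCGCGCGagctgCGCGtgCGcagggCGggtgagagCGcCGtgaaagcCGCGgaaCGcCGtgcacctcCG
Ptma promoter: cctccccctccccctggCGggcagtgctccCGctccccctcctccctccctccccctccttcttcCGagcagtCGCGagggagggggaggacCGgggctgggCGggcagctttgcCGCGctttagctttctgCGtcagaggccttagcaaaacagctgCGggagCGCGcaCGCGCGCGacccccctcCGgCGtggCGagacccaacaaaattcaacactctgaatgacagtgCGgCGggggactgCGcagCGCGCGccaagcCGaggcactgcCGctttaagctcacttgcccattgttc
Sox2 promoter: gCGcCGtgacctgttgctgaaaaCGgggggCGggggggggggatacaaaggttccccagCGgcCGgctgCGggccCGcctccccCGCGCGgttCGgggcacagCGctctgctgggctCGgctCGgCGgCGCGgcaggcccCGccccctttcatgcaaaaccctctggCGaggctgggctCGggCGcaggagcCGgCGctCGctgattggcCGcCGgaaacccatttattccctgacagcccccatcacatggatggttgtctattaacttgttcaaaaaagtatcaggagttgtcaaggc
Rarg promoter: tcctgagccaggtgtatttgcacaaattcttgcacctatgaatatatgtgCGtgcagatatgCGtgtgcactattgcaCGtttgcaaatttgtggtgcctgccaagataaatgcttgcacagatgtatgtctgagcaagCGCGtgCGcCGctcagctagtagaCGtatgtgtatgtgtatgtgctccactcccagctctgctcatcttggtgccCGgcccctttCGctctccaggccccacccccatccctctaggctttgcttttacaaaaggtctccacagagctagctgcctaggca
Pou5f1 promoter: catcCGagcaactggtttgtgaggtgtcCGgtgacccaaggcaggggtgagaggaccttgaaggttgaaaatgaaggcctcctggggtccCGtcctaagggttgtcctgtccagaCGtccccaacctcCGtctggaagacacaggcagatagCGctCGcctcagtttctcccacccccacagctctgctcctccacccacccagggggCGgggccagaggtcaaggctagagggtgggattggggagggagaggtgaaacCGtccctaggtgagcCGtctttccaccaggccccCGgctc
Ccr7 site: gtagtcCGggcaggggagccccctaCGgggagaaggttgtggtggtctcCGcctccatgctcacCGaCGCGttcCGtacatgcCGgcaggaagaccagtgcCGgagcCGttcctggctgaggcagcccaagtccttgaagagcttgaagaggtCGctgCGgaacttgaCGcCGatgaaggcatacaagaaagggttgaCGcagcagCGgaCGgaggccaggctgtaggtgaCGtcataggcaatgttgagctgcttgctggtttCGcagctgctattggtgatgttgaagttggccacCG
Nxph3 site: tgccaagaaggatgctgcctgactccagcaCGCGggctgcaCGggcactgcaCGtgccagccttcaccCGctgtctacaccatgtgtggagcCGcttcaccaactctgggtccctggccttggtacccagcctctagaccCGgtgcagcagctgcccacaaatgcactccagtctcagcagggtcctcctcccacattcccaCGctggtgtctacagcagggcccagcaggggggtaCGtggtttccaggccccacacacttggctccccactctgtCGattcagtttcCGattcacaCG
The Pim3 promoter held 40 CpGs, while Ptma had 28 and Sox2 had 27. The Ccr7 stretch had 20 CpGs, the Nxph3 stretch 12, the Pou5f1 promoter 11 and the Rarg promoter 10. Relative to base composition, CpG observed/expected ran from 1.12 at Pim3 to 0.427 in the Nxph3 stretch and 0.374 at Pou5f1. Over the 392 RefSeq promoter records with their TSS inside a site, the median was 0.754, against 0.384 over all 32851 records. All records include promoters outside RING1B peaks, so this does not set the sites apart from other RING1B peaks.

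The sites were mostly a little wider than the limit. Their median width was 3639 bp, with an interquartile range of 3234 to 4266 bp. There were 332 sites below 4000 bp, 106 from 4000 to below 5000 bp and 31 from 5000 to below 6000 bp. A further 21 reached 6000 to below 8000 bp, 8 reached 8000 to below 10000 bp, and 1 was wider. Together they covered 1.98 Mb, which was 4.53% of the sequence under all RING1B peaks. The 3 narrowest sites were one of 3002 bp at the TSS of Ccnd3, a G1 cyclin, one of 3002 bp between genes nearest to Gm42356, and one of 3009 bp in an exon 5.11 kb from the nearest TSS, that of Rnf112. Just outside the limit were peaks of 2998 bp nearest to Mir6380, 2998 bp in an intron nearest to Sh3bgrl3, and 2997 bp in an intron nearest to Tha1.

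The widest sites fell both at gene starts and away from them. The widest, 10449 bp on chromosome 11 from 97566983 to 97577431, contained a TSS of Srcin1, an inhibitor of SRC kinase signalling, 2.92 kb from its midpoint. The next, 9896 bp on the same chromosome, was centred in an exon of the chemokine receptor gene Ccr7 and contained no TSS. A peak of 9161 bp on chromosome 5 contained the TSSs of Plcxd1 and Gtpbp6, and one of 9130 bp on chromosome 7 (45636076 to 45645205) those of Mamstr, a coactivator of MEF2, and the lncRNA gene A030001D20Rik. On chromosome 15, Pim3 lay in a site of 8931 bp (88859883 to 88868813) and Rarg in one of 8645 bp (102242679 to 102251323).

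Among the rest of the 12 widest, Ptma lay in a site of 8199 bp on chromosome 1 (86521250 to 86529448). Zbtb32, a BTB zinc-finger gene, lay in a site of 7596 bp on chromosome 7, and Ifi30, a lysosomal thiol reductase gene, in one of 6979 bp on chromosome 8. The other 3 contained no curated TSS and had their midpoints between genes. They measured 8300 bp at 28.1 kb from Nxph3, which encodes a neurexophilin, 8042 bp at 19192 bp from the homeobox gene Gsc, and 7348 bp at 17.5 kb from the receptor gene Gpr142. Of these 12, 4 were on chromosome 11.

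Sites were called promoter sites if their midpoint lay within 2500 bp of a curated TSS, and distal otherwise. There were 288 promoter sites, a share of 57.7% (95% Wilson interval 53.3% to 62.0%), and 211 distal ones. The distal sites include 3 that contained a TSS farther than 2500 bp from their midpoint, at Srcin1, Zbtb32, and Plcxd1 with Gtpbp6. The 2 kinds had similar widths, with medians of 3670 and 3618 bp, but different sequence. The median CpG observed/expected in 1 kb around the midpoint was 0.573 in promoter sites and 0.287 in distal sites. CpG-rich DNA was defined as an observed/expected of at least 0.6 with a GC content of at least 50%. The most CpG-dense 1 kb of the peak met it in 234 promoter sites (81.2%) and in 32 distal sites (15.2%). No CpG-rich base was found in 42 distal sites (19.9%) and in 5 promoter sites. Distal sites had a median of 17.8% repeat sequence, against 12.5% in promoter sites. Their median distance to a TSS was 19.9 kb, as 63 lay up to 10 kb away, 111 over 10 and up to 50 kb, 23 over 50 and up to 100 kb and 14 farther. Of the distal midpoints, 111 lay between genes, 84 in introns and 16 in exons. These are comparisons within the sites and describe the list.

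**Figure D1:**
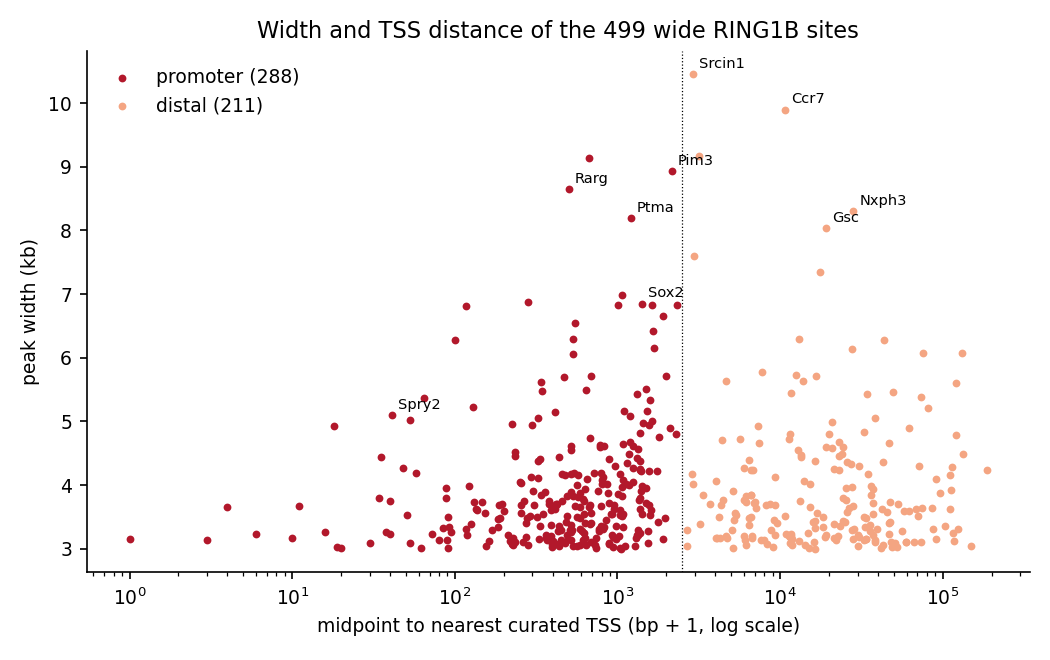
Width of each of the 499 wide RING1B sites without SUZ12 or PCGF2 (vertical axis, kb) against the distance of its midpoint from the nearest curated TSS (horizontal axis, bp plus 1, log scale). Each point is 1 site, the dotted line is the limit of 2500 bp between the 288 promoter and 211 distal sites, and wide sites occur on both sides of it.

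To ask how these sites differ from other RING1B peaks, 3 classes were compared with them. These were the 11042 narrow sites below 3000 bp with neither SUZ12 nor PCGF2, the 640 wide sites with SUZ12 only, and the 2783 wide sites with SUZ12 and PCGF2. The remaining 9 wide peaks overlapped PCGF2 only and were not compared. Each difference of shares is in percentage points with a 95% Newcombe interval, and 20 were computed without adjustment for their number. The intervals reflect counting error alone and take each peak as an independent count. In 14 of the 20 the interval left out 0.

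At gene starts, wide sites without SUZ12 or PCGF2 were less frequent than other wide sites. Their promoter share of 57.7% compares with 62.6% of all RING1B peaks, 72.0% of wide sites with SUZ12 only and 79.8% of wide sites with SUZ12 and PCGF2. The differences were -14.3 points (-19.8 to -8.74) and -22.1 points (-26.7 to -17.6). The share was higher in the sites than in those classes on 5 and 4 of 19 autosomes. Against narrow sites with neither (55.1%) the difference was 2.60 points (-1.88 to 6.96), so none was detectable. This last value depended on the definition of a promoter. It was -10.6 points (-14.9 to -6.08) with the midpoint within 1000 bp of a TSS, and 9.26 points (4.79 to 13.6) when a TSS had to lie inside the peak, a definition added after seeing the data under which wider peaks have more room for a TSS.

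The centres of the sites were poorer in CpG than those of every class compared. In 1 kb around the midpoint, 132 sites were CpG-rich (26.5%), against 46.3% of all RING1B peaks. The share was 41.0% in narrow sites with neither, a difference of -14.6 points (-18.3 to -10.4), and 39.8% in wide sites with SUZ12 only, a difference of -13.4 points (-18.7 to -7.90). It was 61.4% in wide sites with SUZ12 and PCGF2, a difference of -35.0 points (-39.1 to -30.6), and this share was the higher one on all 19 autosomes. Against narrow sites the gap was found at promoter sites only. There, 42.4% of the sites and 71.0% of narrow sites had a CpG-rich centre, against 4.74% and 4.22% at distal sites. Midpoints of promoter sites also lay farther from a TSS, at a median of 554 bp against 189 bp in narrow promoter sites. The part of this distance in the gap was not tested. The pooled results also depended on the window. With the most CpG-dense 1 kb of each peak, 53.3% of the sites and 46.7% of narrow sites were CpG-rich, a difference of 6.60 points (2.12 to 11.04), but wider peaks offer more windows to choose from. Over whole peaks the difference from narrow sites was -19.5 points (-23.0 to -15.6). CpG-rich bases made up a median of 29.3% of the peak in the sites, 52.7% in narrow sites, 36.8% in wide sites with SUZ12 only and 32.9% in wide sites with SUZ12 and PCGF2. The difference from wide sites with SUZ12 only was -1.21 points (-6.01 to 3.68) over whole peaks and -7.06 points (-15.1 to 1.53) with a width limit of 4000 bp. Over whole peaks the direction against wide sites with SUZ12 and PCGF2 was the opposite, at 6.96 points (3.32 to 10.98).

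Fewer of the sites lay within genes. The midpoint was in an annotated gene in 308 sites (61.7%), against 73.7% of all RING1B peaks. The difference was -6.78 points (-11.2 to -2.53) from narrow sites with neither (68.5%), -11.4 points (-16.8 to -5.92) from wide sites with SUZ12 only (73.1%) and -23.2 points (-27.7 to -18.8) from wide sites with SUZ12 and PCGF2 (84.9%). In exons lay 17.2% of the midpoints (14.2% to 20.8%), against 26.0% for narrow sites and 34.0% for wide sites with SUZ12 and PCGF2. Against narrow peaks of at least 2000 bp, with the wide sites limited to 5000 bp, the genic difference was -2.88 points (-8.21 to 2.33).

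Peaks with at least 30% repeat sequence were few in every class. There were 30 among the sites (6.01%), against 4.26% of all RING1B peaks, 6.00% of narrow sites, 1.72% of wide sites with SUZ12 only and 0.755% of wide sites with SUZ12 and PCGF2. The differences from the wide classes were 4.29 points (2.08 to 6.85) and 5.26 points (3.44 to 7.71), and that from narrow sites was 0.0167 points (-1.81 to 2.49). With a limit of 50% repeat sequence, neither difference from the wide classes left out 0.

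**Figure D2:**
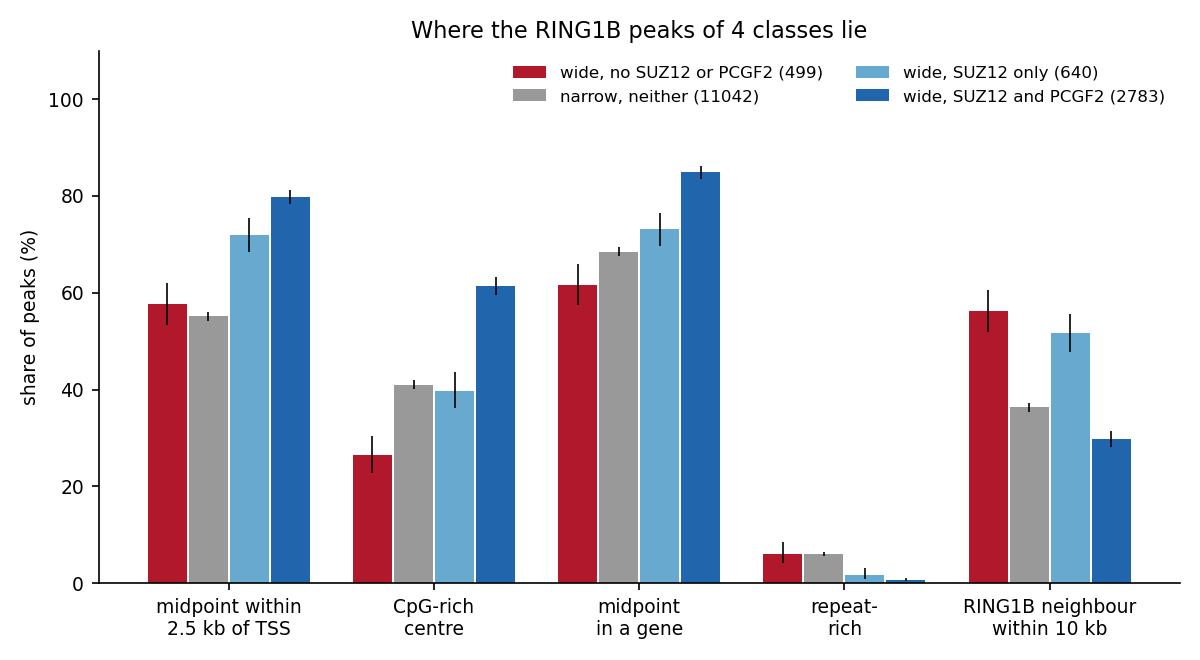
Share of peaks (vertical axis, %) with each property in 4 classes of RING1B peaks, with bars for the share and lines for 95% Wilson intervals. The wide sites without SUZ12 or PCGF2 had the lowest share with a CpG-rich centre (26.5%) and the lowest share in genes (61.7%) of the 4 classes.

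The sites lay close to other RING1B peaks. A neighbouring RING1B peak within 10 kb was present for 281 sites (56.3%), against 34.9% of all RING1B peaks. The share was 36.3% for narrow sites with neither and 29.8% for wide sites with SUZ12 and PCGF2, and the differences were 20.0 points (15.5 to 24.4) and 26.6 points (21.8 to 31.2). It was higher in the sites on 17 and 18 of 19 autosomes. Against narrow peaks of at least 2000 bp, with the wide sites limited to 5000 bp, the first difference was 9.48 points (4.04 to 14.8). Wide sites with SUZ12 only had a share of 51.7%, and the difference of 4.59 points (-1.24 to 10.4) was within counting error. It was 8.35 points (1.93 to 14.7) when both classes were limited to 5000 bp. The median gap to the nearest RING1B peak was 7899 bp in the sites and 28703 bp in wide sites with SUZ12 and PCGF2. For the 281 sites with a near neighbour, it was a narrow site with neither in 202 cases, another such wide site in 22 and a peak with SUZ12 or PCGF2 in 57.

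SUZ12 peaks were mostly distant. The median gap to a SUZ12 peak was 39.5 kb, against 58.2 kb for narrow sites with neither. Within 10 kb of a SUZ12 peak lay 83 sites (16.6%), against 12.7% of narrow sites, a difference of 3.96 points (0.888 to 7.54). Over all RING1B peaks, which include those that overlap SUZ12, the share was 45.9%. The difference was not maintained against narrow peaks of at least 2000 bp with the wide sites limited to 5000 bp, at -0.472 points (-4.23 to 3.69), nor without chromosome 11, at 1.97 points (-1.24 to 5.86). The 3 sites nearest to SUZ12 were at Mybpc2, a myosin-binding protein gene (0.499 kb), nearest to the homeobox gene Nkx3-2 (0.840 kb) and nearest to Rasl10a (0.952 kb). Those farthest from SUZ12 were at Mat2b (1485 kb), at Mycn (1204 kb) and nearest to the olfactory receptor gene Olfr1238 (1189 kb). The Olfr1238 site had 67.2% repeat sequence, the highest of all 499, and its nearest RING1B peak was 1189 kb away.

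As a set, the sites reached about as far upstream as downstream of their TSSs, although single sites were often one-sided. Of the sites with 1 gene, 188 had all its curated TSSs in the peak on 1 strand within 500 bp. These reached a median of 1996 bp upstream (interquartile range 1298 to 2618) and 1706 bp downstream (1147 to 2484). More of the peak lay downstream in 90 of them, 47.9% (40.8% to 54.98%). The share was 64.4% (63.0% to 65.8%) in narrow sites with neither, 57.3% (51.9% to 62.6%) in wide sites with SUZ12 only and 75.8% (73.8% to 77.7%) in wide sites with SUZ12 and PCGF2. Single genes ran both ways. The Pim3 site extended 2312 bp upstream and 6619 bp downstream, and Mycn 1787 and 5041 bp, while the Ptma site reached 5308 bp upstream and 2891 bp downstream. This measure was added after seeing the data and was not tested.

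**Figure D3:**
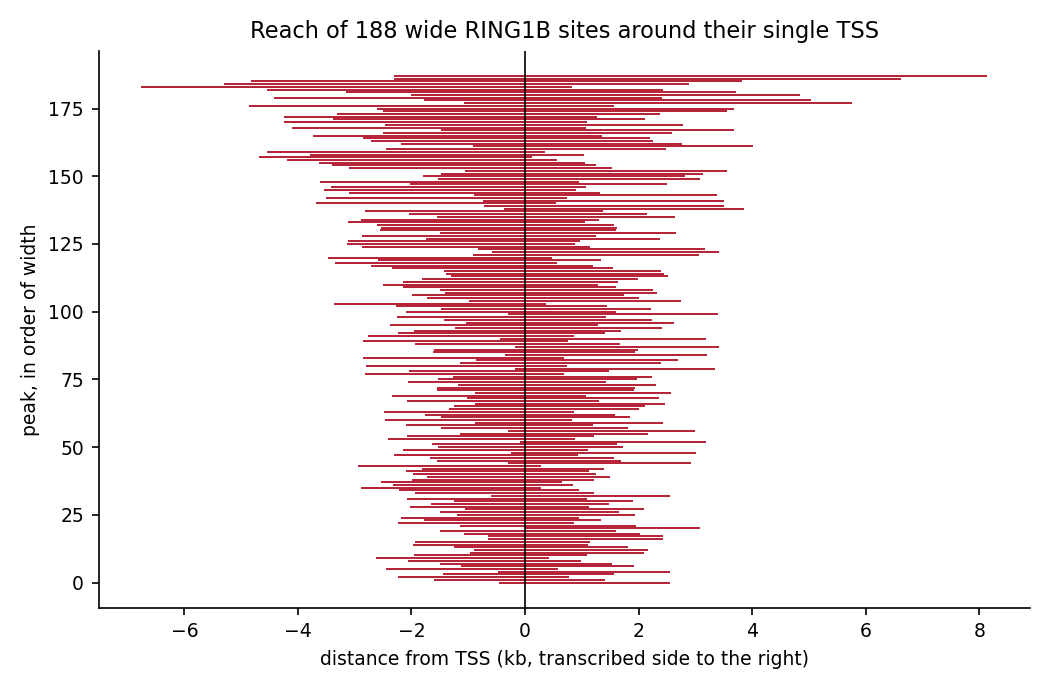
Reach of the 188 sites with a single gene start (each line is 1 peak, in order of width on the vertical axis) around their TSS (horizontal axis, kb, transcribed side to the right). The lines extend to both sides, with medians of 1996 bp upstream and 1706 bp downstream.

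Which genes start inside the sites was then examined. The 376 genes were 1.44% of 26180 annotated genes and 2.99% of the 12576 genes with a TSS in any RING1B peak. They comprised 317 protein-coding genes, 44 lncRNA genes, 10 miRNA genes, 4 small nucleolar RNA genes and 1 small nuclear RNA gene. Developmental transcription factors were few. Of 283 on the list, 2 started in the sites, among them Cebpb, while 255 started in wide sites with SUZ12 and PCGF2 and 5 in wide sites with SUZ12 only. As a share of the genes in each class these were 0.532%, 8.84% and 0.865%. The difference was -8.31 points (-9.47 to -6.61) from wide sites with SUZ12 and PCGF2 and -0.333 points (-1.54 to 1.14) from wide sites with SUZ12 only. With all wide classes limited to 5000 bp, the first of these was -0.541 points (-1.30 to 0.951), so it was no longer past the threshold among peaks of like width.

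Of the 8 lists of genes by function, pluripotency and stem cell genes had the largest share in the sites, at 9 of 58 (15.5%). The share of all annotated genes was 1.44%. Of the 46 pluripotency and stem cell genes that started in any RING1B peak, these 9 were 19.6%, against 2.99% for all genes. Of the list, 16 started in narrow sites with neither, 7 in wide sites with SUZ12 only and 12 in wide sites with SUZ12 and PCGF2. Sox2, the SOX-family partner of OCT4, lay in a site of 6852 bp on chromosome 3 (34647982 to 34654833) with its midpoint in the exon and a SUZ12 peak 3.87 kb away. Pou5f1 lay in a site of 3631 bp on chromosome 17 (35503803 to 35507433), whose most CpG-dense 1 kb reached an observed/expected of 0.374. Mycn, a MYC-family proliferation factor, lay in 6828 bp on chromosome 12 (12936796 to 12943623), and Sall4, a zinc-finger factor of the pluripotency network, in 6275 bp on chromosome 2 (168763964 to 168770238). The others included Lin28b, an inhibitor of let-7 maturation (5334 bp), Spry2, a feedback inhibitor of receptor tyrosine kinase signalling (5094 bp), Lefty1, a NODAL antagonist (4612 bp), and Trim28, the KAP1 corepressor (3206 bp). The Lefty1, Lin28b and Pou5f1 sites did not reach the CpG-rich limit even in their most CpG-dense 1 kb, with values of 0.555, 0.459 and 0.374, while Trim28 and Sox2 reached 0.996 and 0.949.

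Genes of chromatin regulation included 2 of PRC1 itself. Of 102 on the list, 5 started in the sites (4.90%) and 44 in narrow sites with neither. The share of all annotated genes was 1.44%. Of genes that started in any RING1B peak, the sites held 6.17% of the list and 2.99% of all. Rybp, a subunit of variant PRC1, lay in a site of 3688 bp on chromosome 6 (100285933 to 100289620) with an observed/expected of 1.10 in its most CpG-dense 1 kb, and Pcgf6, the PCGF subunit of another variant complex, in one of 4272 bp on chromosome 19 (47047531 to 47051802). The other 3 were the BET protein gene Brd2 (5625 bp), the BAF subunit gene Arid1a (4154 bp) and the DNA methyltransferase gene Dnmt3a (3176 bp).

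Among genes that started in any RING1B peak, 2.99% did so in the sites, and 9.43% of those on the cell cycle and growth list. Of 58 cell cycle and growth genes, 5 started in the sites (8.62%), against 1.44% of all annotated genes. These were Ier2, an immediate-early gene, in 6877 bp on chromosome 8, Mycn, Trp53, which encodes p53, in 4403 bp on chromosome 11 together with Wrap53, Klf10 in 3270 bp and Ccnd3 in 3002 bp. Of 65 germline genes, 6 started in the sites (9.23%), or 10.3% of those that started in any RING1B peak. Tex19.1 lay in 4190 bp, the meiotic cohesin gene Stag3 in 4136 bp, Hsf2bp in 4024 bp, Spo11, which makes meiotic double-strand breaks, in 3608 bp, Msh4 in 3544 bp and the synaptonemal complex gene Sycp3 in 3046 bp. A further 27 germline genes started in narrow sites with neither.

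Housekeeping lists were found chiefly at narrow sites. Their shares in the sites rest on 3 genes each and were above the 1.44% of all annotated genes, which include genes outside RING1B peaks. Among genes that started in a RING1B peak, shares in the sites were 5.36% for ribosomal proteins and 3.90% for transcription and splicing factors. Over all such genes the share was 2.99%. Of 79 cytosolic ribosomal protein genes, 3 started in the sites (3.80%), among them Rpl36 and Rpl38, and 51 in narrow sites with neither. Of 110 transcription and splicing factor genes, 3 started in the sites (2.73%, Hnrnpl, Polr2a and Polr2h) and 65 in narrow sites. Of 60 leukocyte and epithelial surface genes, which served as markers of cells other than ESCs, 0 started in the sites and 37 started in no RING1B peak. The surface genes (0) and the developmental transcription factors (0.707%) were the lists with a share below that of all annotated genes. Lists were compared by these counts and shares only.

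**Figure D4:**
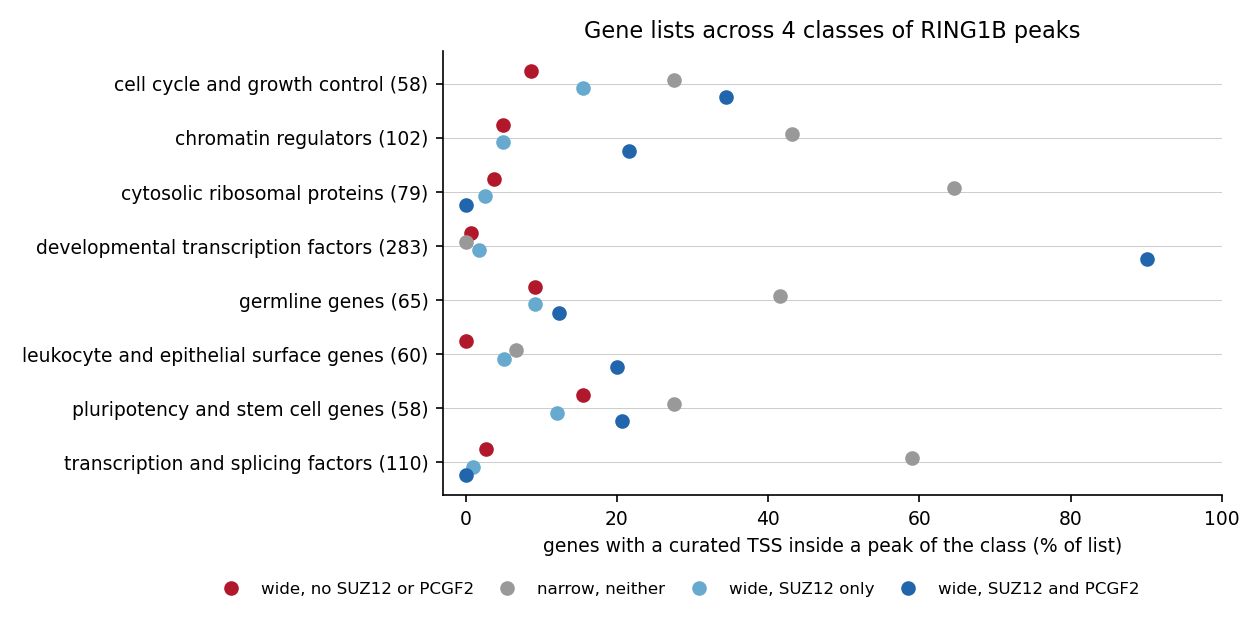
Share of each gene list (horizontal axis, %, list size in brackets) with a curated TSS inside a peak of each of 4 classes, 1 point per class. Developmental transcription factors lie at 255 of 283 in wide sites with SUZ12 and PCGF2, and pluripotency genes have the highest share of the 8 plotted lists in the wide sites without SUZ12 or PCGF2, at 9 of 58.

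Several sites covered more than 1 gene start. There were 74 sites with TSSs of at least 2 genes (14.8%), against 9.39% of all RING1B peaks, which are mostly narrower. The share was 16.1% in wide sites with SUZ12 only and 14.8% in wide sites with SUZ12 and PCGF2, and the differences were -1.26 points (-5.44 to 3.03) and -0.0104 points (-3.17 to 3.61). With all wide classes limited to 5000 bp, the difference from wide sites with SUZ12 and PCGF2 was 5.71 points (2.30 to 9.58). With all RefSeq transcripts in place of curated ones it was -5.30 points (-9.11 to -1.13). Of the 10 sites with 3 or more genes, 6 held replication-dependent histone genes. One of 6552 bp on chromosome 13 (23570384 to 23576935) contained the TSSs of H2ac8, H2bc8, H2bc7, H2ac7 and H3c4. Another of 6806 bp (23530356 to 23537161) contained those of H4c8, H2ac10, H3c8 and Gm11335, and sites of 4560 and 3700 bp on the same chromosome those of H2bc13, H2ac13 and H3c10, and of H4c1, H3c1 and H1f1.

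Other multi-gene sites held the TSSs of Ndufaf3, Dalrd3 and the miRNA genes Mir191 and Mir425 on chromosome 9 (4440 bp), Actg1 (cytoplasmic gamma-actin) with 0610009L18Rik and Mir6935 on chromosome 11 (6651 bp), and Nek8, Tlcd1 and Mir7653 on chromosome 11 (3994 bp). Counted by symbol, with variant histones such as H2ax left out, 23 of 67 histone genes started in 8 sites, 6 of them on chromosome 13 and 2 on chromosome 3. A further 22 started in narrow sites with neither, 1 in wide sites with SUZ12 only and 0 in wide sites with SUZ12 and PCGF2, and 18 in no RING1B peak. This list was made after its members were seen. Histone genes are similar to one another, and the authors kept only uniquely mapped reads. Reads that matched several copies were therefore not counted, and peaks there are uncertain.

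Chromosome 11 stood apart. It held 113 sites (22.6%) but 9.13% of all RING1B peaks. Of its 1107 RING1B peaks with neither SUZ12 nor PCGF2, 10.2% (8.56% to 12.1%) were wide enough to be included, against 3.73% (3.38% to 4.12%) over the other 18 autosomes, where single chromosomes ranged from 1.55% to 5.19%. The share was 6.00% (3.47% to 10.2%) from 0 to 50 Mb, 7.80% (5.61% to 10.8%) from 50 to 90 Mb and 14.05% (11.2% to 17.4%) beyond 90 Mb. Median widths of peaks with neither were 1364 bp on chromosome 11 and 960 to 1116 bp on the others. RING1B peaks with SUZ12 were also wider there, with a median of 3343 bp against 2538 to 3104 bp. The SUZ12 and PCGF2 lists did not stand out, at medians of 2768 bp (2376 to 3171 elsewhere) and 2446 bp (2239 to 2863). Chromosome 11 also had the most RING1B peaks per Mb, 13.9 against 4.97 to 9.61, and 15.9 genes per Mb against 7.25 to 15.9. The part of these values in the excess of wide sites was not tested.

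Without chromosome 11, 386 sites remained, and the CpG, genic, repeat and neighbour differences from the 2 wide classes kept their direction. The CpG difference from narrow sites was then -13.6 points (-17.9 to -8.82) and the neighbour difference 19.6 points (14.5 to 24.6). The promoter difference from narrow sites became 5.61 points (0.559 to 10.4). Of the 113 sites on chromosome 11, 60 were distal, which was 28.4% of all distal sites.

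**Figure D5:**
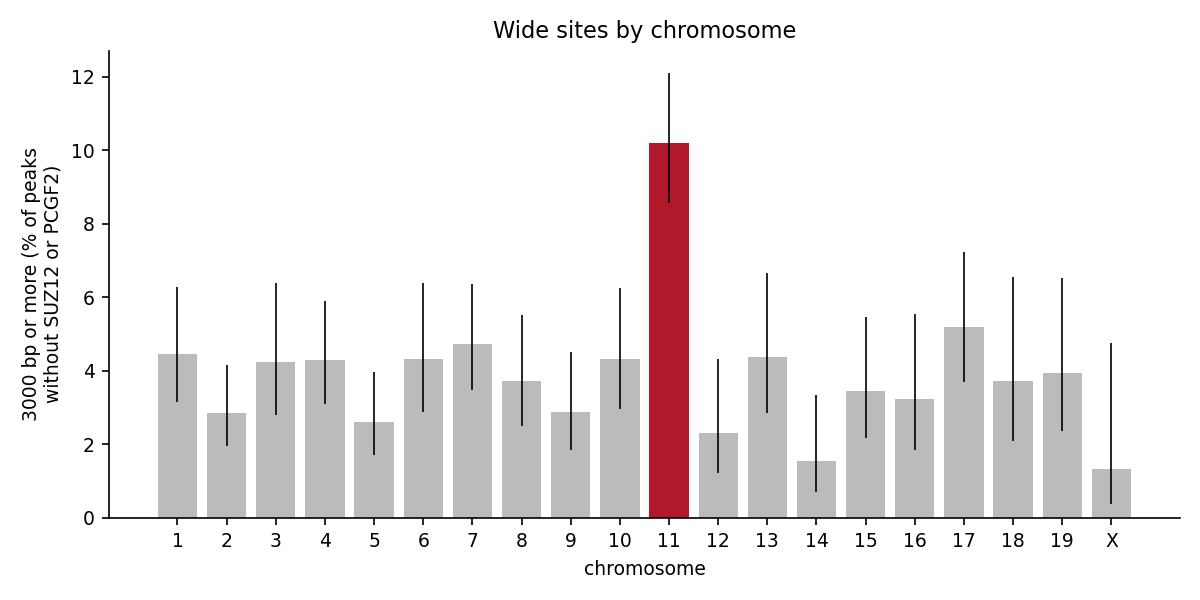
Share of RING1B peaks with neither SUZ12 nor PCGF2 that were 3000 bp or wider (vertical axis, %) on each chromosome, with 95% Wilson intervals as lines. Chromosome 11, in red, is at 10.2% and all others are at 5.19% or lower.

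Sequence motifs were counted on both strands in 1 kb around each midpoint. The E-box CACGTG was in 29.7% of the sites (25.8% to 33.8%), close to the 29.6% of narrow sites with neither, in 23.8% (20.6% to 27.2%) of wide sites with SUZ12 only and in 16.9% (15.5% to 18.3%) of wide sites with SUZ12 and PCGF2. The ETS motif CCGGAAGT was in 3.21% (1.98% to 5.14%) of the sites and 9.07% (8.54% to 9.62%) of narrow sites. It was also in only 3.12% of wide sites with SUZ12 only and 1.33% of wide sites with SUZ12 and PCGF2. At promoters it was in 4.17% of the sites and 13.6% of narrow sites, and at distal places in 1.90% and 3.55%. Midpoints of promoter sites lay farther from a TSS than those of narrow promoter sites, and the part of this in the difference was not tested. Over all RING1B peaks the shares were 25.4% for CACGTG and 6.46% for CCGGAAGT. The YY1 motif AAGATGGC was in 5.41% of the sites, the NRF1 motif GCATGCGC in 5.61%, the GC box GGGGCGGGG in 17.2%, the cyclic AMP response element TGACGTCA in 1.40% and the octamer ATTTGCAT in 4.61%. Over all RING1B peaks these were in 6.79%, 6.29%, 23.6%, 2.505% and 3.78%. In the 392 RefSeq promoters with the TSS inside a site, CACGTG was in 15.1% and GGGGCGGGG in 23.2%. Over all promoters these were in 7.15% and 11.4%. GCATGCGC was in 6.12% against 2.71%, TGACGTCA in 3.57% against 1.79%, AAGATGGC in 3.32% against 2.75% and ATTTGCAT in 2.81% against 1.74%. CCGGAAGT went the other way, at 2.55% against 3.89%. All promoters include those outside RING1B peaks, so these shares do not set the sites apart from other RING1B peaks. The Sox2 and Pou5f1 promoters shown above each hold the GC box, and the Nxph3 stretch holds the E-box. A match describes these letters and no binding was measured.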

How the data were processed

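Peak positions were taken from the 3 deposited lists for RING1B, SUZ12 and PCGF2. Per the study's methods, the authors aligned reads with Bowtie 2 to mm10 joined to hg19 (the HEK293T spike-in). They removed duplicates, kept only uniquely mapped reads and called broad peaks with MACS2 against Input. RING1B and SUZ12 peaks were called on merged replicates and kept if found in untreated PRC1CPM and PRC1CKO cells. PCGF2 peaks were kept if found in every untreated PRC1CPM replicate. Blacklisted regions were dropped, and RING1B peaks that did not lose signal when PRC1CKO cells received tamoxifen were discarded. RING1B data of PRC1CKO cells and signal in treated cells were not analysed here. These rules and the merging of replicates can change the number and width of peaks, and broad calling can join or split neighbouring peaks.

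An overlap of 1 bp or more counted as shared. Coordinates, counted from base 1, were read on GRCm38.p6, to which mm10 corresponds. TSSs were those of curated RefSeq transcripts. CpG observed/expected was the CpG count times length over the product of C and G counts, and repeats were lower-case reference bases. CpG-rich bases were those within CpG-rich windows of 200 bp, which could overlap. Shares have 95% Wilson intervals and differences 95% Newcombe intervals, and a difference was past the threshold if its interval left out 0. The members and lists were chosen with earlier results of these data known. Named sites were the 12 widest, the 8 with most genes, the 3 on each side of the width limit, the 5 widest distal, the 3 nearest to and farthest from SUZ12, and those at genes of 8 lists (up to 30 sites). Some items that this rule selects are not reported here. The code was tested on simulated data. Python 3.11.15, NumPy 2.4.6, pandas 2.3.3 and SciPy 1.17.1 were used. Alternatives changed the width limit, the classes, merging of peaks, chromosomes and each definition. Those without chromosome 11 and with a TSS inside the peak were added after seeing the data.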

Additional observations from a re-analysis of the deposited data

How the results depend on the processing

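No paired analysis was possible because each list holds a single set of positions for all replicates, and none could be left out. Over 20 differences, 174 alternative values were computed, of which 144 kept both direction and side of the threshold, 9 lost the threshold, 6 passed it and 15 changed direction. Values below are in percentage points unless a count is named. The number of sites was 905 with a width limit of 2500 bp and 167 with one of 4000 bp.

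Against narrow sites with neither, the promoter difference was -10.6 with a TSS within 1000 bp and -4.75 with like widths (wide sites up to 5000 bp, narrow ones from 2000 bp), and it passed the threshold at 4.85 when the peak had to overlap a TSS plus or minus 2500 bp, 9.26 with a TSS inside the peak and 5.61 without chromosome 11. The CpG-rich difference was 6.60 in the most CpG-dense 1 kb. The genic difference was -2.88 with like widths. The repeat difference was near 0 throughout, at -0.863 with peaks merged over gaps up to 1 kb, -0.399 at least 5 kb from SUZ12 and PCGF2 peaks, -0.914 with a limit of 50%, -1.22 at 4000 bp and -0.451 without chromosome 11. The share within 10 kb of SUZ12 differed by 1.57 at least 5 kb from SUZ12 and PCGF2, -0.472 with like widths and 1.97 without chromosome 11.

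Against wide sites with SUZ12 only, the CpG-rich difference was -1.21 over whole peaks and -7.06 at 4000 bp, the neighbour difference 6.74 at 2500 bp and 8.35 with like widths, and the repeat difference 0.200 with a limit of 50% and 2.54 at 4000 bp. The several-gene difference was 0.0134 at 2500 bp and 0.327 with like widths, and the transcription factor difference 0.672 at 4000 bp. Against wide sites with SUZ12 and PCGF2, the CpG-rich difference was 6.96 over whole peaks and the repeat difference 0.164 with a limit of 50%. The several-gene difference was -5.30 with all RefSeq transcripts, 5.71 with like widths and 0.537 without chromosome 11, and the transcription factor difference -0.541 with like widths. The cause of these changes was not tested. Depth is unknown from these lists, so a missing SUZ12 or PCGF2 peak cannot be read as missing binding.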

Other observations

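Some sites lay in groups. Another wide site without SUZ12 or PCGF2 was within 50 kb for 109 of the 499 (21.8%), 35 of them on chromosome 11, and within 10 kb for 32. No other class was counted in this way, so these values do not show more grouping than elsewhere. The groups of 4, joined over gaps of up to 50 kb, were around Ptma on chromosome 1 over 42.8 kb, around the lncRNA gene Chaserr on chromosome 7 over 62.5 kb, and from Dedd2 to Prr19 on chromosome 7 over 86.1 kb, which includes the repressor genes Cic and Erf. There were 5 groups of 3, among them one over 38.4 kb on chromosome 11 with the nuclear receptor genes Thra and Nr1d1, and one over 69.3 kb on chromosome 3 with histone genes (H2ac20, H2ac21, H2bc21 and H4c14). These groups were looked up after the values were seen.

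For the 211 distal sites, the nearest gene was often one whose own TSS carried RING1B. It started in a RING1B peak with SUZ12 in 77 cases (36.5%, 95% Wilson interval 30.3% to 43.2%), in a RING1B peak without SUZ12 in 67 (31.8%) and in no RING1B peak in 67. For distal narrow sites with neither, the shares were 37.2%, 25.6% and 37.2%. Developmental transcription factor genes were nearest to 6 distal sites (2.84%), against 2.34% of distal narrow sites, and were Dlx3, Foxj1, Nkx3-2, Sim2 and Tfap2c. Pluripotency genes, here Dppa3 and Socs3, were nearest to 3 distal sites (1.42%, 0.485% to 4.10%), against 0.868% of distal narrow sites. The nearest gene was taken by distance alone, and no contact or expression was measured.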
